A study of Mus musculus with 18 samples.

Results

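Messenger RNA levels are described here for 10 mouse genes of the PI3K, AKT and FoxO axis in brown preadipocytes given the growth factor FGF6. They are the transcription factors Foxo1, Foxo3 and Foxo4 and 7 genes that FoxO factors or PI3K signalling are known to control, Irs1, Irs2, Pik3ip1, Sesn1, Sesn3, Ccng2 and Txnip. They were chosen by name, as the rows of the count table whose Ensembl identifiers carry these symbols in GENCODE. The choice was made with earlier results of these data known. All 10 were found among the 48023 genes of the table, and all 10 passed the filter on low counts that kept 15071 genes for testing.

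A receptor for insulin or a growth factor, once bound by its ligand, activates class I PI3K, either directly or through the adaptor proteins IRS1 and IRS2. PI3K makes a phosphoinositide lipid at the plasma membrane, and the kinases AKT and SGK, activated downstream of it, phosphorylate FoxO factors. Phosphorylated FoxO is bound by 14-3-3 proteins and held in the cytoplasm, so genes that FoxO activates in the nucleus are transcribed less. Several of these genes feed back on the axis, among them Irs2, which carries the insulin signal, and the sestrins, which restrain the kinase complex mTORC1. In fat cell precursors FoxO1 is known as a brake on adipogenesis that insulin relieves. Most of this control acts on proteins, by phosphorylation and localization, and RNA-seq measured only the transcripts.

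The cells were an immortalized line of murine brown preadipocytes, made immortal with the SV40 T antigen, a viral protein that binds p53 and the retinoblastoma protein. One line was used, so the libraries hold no differences between animals. Cells of all groups carried the T antigen, and were not differentiated to adipocytes. They were kept for 4, 8 or 24 h with vehicle, or with FGF6 at a dose of 200 ng/ml. The 6 combinations of treatment and time had 3 libraries each, 18 in all. The labels do not say whether the 3 libraries of a group came from separate cultures, so p-values measure the spread between these libraries, which may be technical.

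Library totals lay between 24327816 and 33471980 counts, and each of the 10 genes had between 55 and 4572 counts in every library. Levels are given as CPM, the count of a gene scaled by the TMM-adjusted total of the tested genes in its library. Effects are log2 fold changes of FGF6 against vehicle with the standard error (SE), and a gene was called at an adjusted p under 0.05 in edgeR's quasi-likelihood test over all 15071 genes. Of all genes tested, 34.2% were called lower and 28.6% higher with FGF6 at 4 h, 38.4% and 32.4% at 8 h, and 37.9% and 35.9% at 24 h. Replicate 3 of vehicle at 24 h stood apart from the other 2 libraries of its group, with a chi-square per degree of freedom over genes of 35.9 and 39.4 against 2.38 to 7.36 in the other 16 pairs of libraries of one group. In that library the 10 genes deviated from the mean of the other 2 by -6.45% to 7.59%. Without it, 8 of the 10 genes were lower and 1 higher with FGF6 at 24 h, the same numbers as with it. The identity of the cells was checked against marker genes. Of the 10 stromal markers listed, 9 were tested and Dlk1, a preadipocyte marker, had no count in any library. At 24 h with FGF6, Pdgfra, Pdgfrb, Ly6a, Thy1, Ebf2, Prrx1 and Col1a1 were lower, and Cd34 (16.5 to 43.0 CPM) and Itgb1 (988 to 1234 CPM) were higher. The summed level of the 10 stromal markers was 5860 to 6185 CPM in vehicle and 2471 to 2551 CPM in FGF6 libraries at 24 h, and 4865 to 5005 against 3880 to 3965 CPM at 4 h. Of that sum at 24 h, Col1a1 took 3107 CPM on average in vehicle and 443.3 CPM in FGF6 libraries. The 8 markers of mature adipocytes summed to 1495 to 1649 CPM in vehicle and 148.9 to 152.8 CPM in FGF6 libraries at 24 h, and to 1481 to 1615 against 628.4 to 644.6 CPM at 4 h, of which Lpl, the lipoprotein lipase that preadipocytes also make, took 1421 CPM in vehicle and 82.7 CPM in FGF6 libraries at 24 h. Lep had no count in any library, and Adipoq had a mean of 0.612 CPM in vehicle and no count in FGF6 libraries at 24 h. Not all adipocyte markers fell: of the 6 that were tested, 5 were lower and 1 was higher with FGF6 at 24 h. Summed markers of muscle, endothelium, immune cells and epithelium did not exceed 9.09, 5.65, 16.7 and 2.57 CPM in any library, with Myf5 and Cd3e at 0 throughout. The part of these marker changes in the levels of the 10 genes was not tested. In bulk RNA, fewer cells of a type and less RNA per cell cannot be told apart.

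The DNA just before the RefSeq start sites of 3 of these genes is shown first. These 3 were taken because this DNA holds short motifs known to be read by factors of this axis. It also lies outside the exons of the genes in GENCODE. RefSeq gave a window of 250 bases before the start for 9 of the 10 genes, in 10 windows, 2 of them for Sesn1. Foxo4 had no window. The motifs searched on both strands were GTAAACA, the core that forkhead factors bind, CAAAACA, the core of the insulin response element, and CACGTG, the E-box of MYC, USF and MondoA-related factors. Coordinates are those of GRCm38.p6, sequences run 5′ to 3′ on the strand of the gene, and capitals mark the motif matches.
Irs1 (chr1:82291440-82291689, minus strand): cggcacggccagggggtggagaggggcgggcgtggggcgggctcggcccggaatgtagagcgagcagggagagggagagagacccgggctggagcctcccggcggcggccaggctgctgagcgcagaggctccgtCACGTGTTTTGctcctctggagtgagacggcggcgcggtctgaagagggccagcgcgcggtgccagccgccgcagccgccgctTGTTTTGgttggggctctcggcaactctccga
Irs2 (chr8:11008930-11009179, minus strand): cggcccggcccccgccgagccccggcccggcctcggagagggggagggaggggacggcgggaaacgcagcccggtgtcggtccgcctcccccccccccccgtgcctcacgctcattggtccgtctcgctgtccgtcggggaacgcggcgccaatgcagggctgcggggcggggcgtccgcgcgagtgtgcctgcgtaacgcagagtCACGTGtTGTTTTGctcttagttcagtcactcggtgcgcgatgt
Txnip (chr3:96557707-96557956, plus strand): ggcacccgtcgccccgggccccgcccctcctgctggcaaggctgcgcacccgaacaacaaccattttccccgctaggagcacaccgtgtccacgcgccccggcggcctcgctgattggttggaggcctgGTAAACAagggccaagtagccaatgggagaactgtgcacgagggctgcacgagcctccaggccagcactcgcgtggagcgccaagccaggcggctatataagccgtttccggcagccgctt
Both insulin receptor substrate genes held an E-box beside a reverse copy of the insulin response core. In Irs1, CACGTG began at base -115 and TGTTTTG at base -111, so that they overlapped, and a further TGTTTTG began at base -32, where base -1 is the last one before the start. In Irs2, CACGTG began at base -44 and TGTTTTG at base -37, with a single base between them. Bases are counted from RefSeq starts. On the minus strand, GENCODE starts Irs2 at 11008458 and Irs1 at 82291416, downstream of the window edges at 11008930 and 82291440. Counted from the GENCODE starts, the matches in these 2 genes lie further upstream. Txnip held GTAAACA at base -121. Ccng2 held CAAAACA at base -16, in a window that GENCODE places within an exon of the gene. Over 32851 RefSeq windows of this length, 3.17% held GTAAACA, 5.56% CAAAACA, 6.02% CACGTG, and 0.295% both of the latter motifs. Among the 9 genes with a window, these motifs were found in 1, 3 and 2, respectively. A match describes letters and not binding, and no match says only that these letters are not in the window.

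With FGF6, 8 of the 10 genes were lower, 1 was higher and 1 did not pass the test, at each of the 3 times. At 4 and 8 h the gene that rose was Irs1, and at 24 h it was Ccng2, which had been lower at both earlier times. Sesn3 did not pass the test at any time. The share called lower, 8 of 10, stood against 34.2%, 38.4% and 37.9% of all genes. Because the 10 genes were chosen with earlier results of these data known, the comparisons with all genes here are no independent test. They only describe these genes. Levels at least 2-fold lower were found for 4, 5 and 5 of the 10 genes at 4, 8 and 24 h, against 6.38%, 10.9% and 15.3% of all genes. The median log2 fold change of the 10 genes was -0.93, -0.94 and -0.97, and that of all genes tested -0.05, -0.05 and -0.02. In the 9 genes called at a time, all 3 FGF6 libraries lay on the same side of all 3 vehicle libraries, whereas in Sesn3 the groups overlapped at every time. The share of all tested genes whose groups lie apart in this way was not counted, so this only describes the 10 genes. With 3 libraries a group, an exact permutation test of a single gene cannot go below a p of 0.1, so calls rest on the fit over all genes. When TMM factors were left out and library sizes used alone, the median of all genes at 4 h moved by -0.10 and 33.3% of the calls were higher in place of 45.5%, while the 9 calls among the 10 genes kept their direction.

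**Figure D1:**
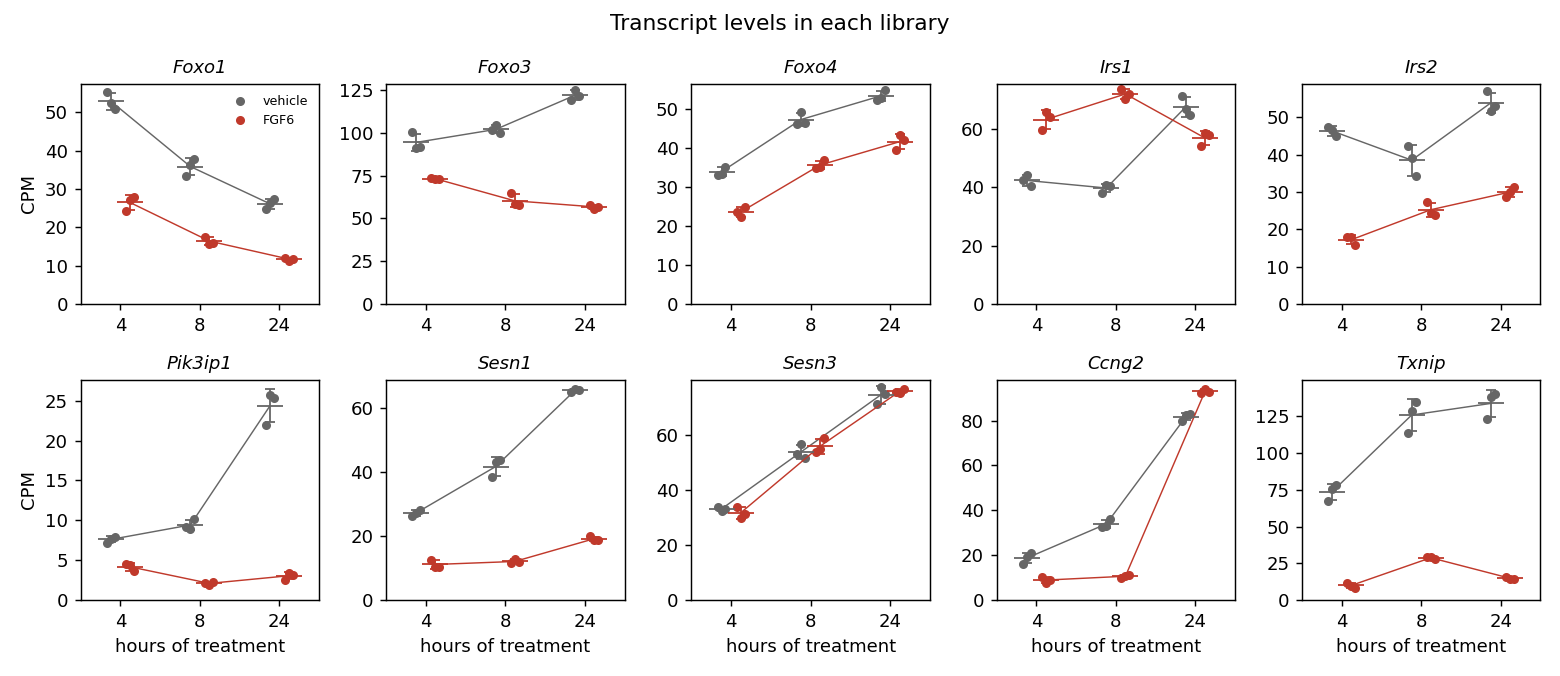
CPM (vertical axis, from 0) of each of the 10 genes at 4, 8 and 24 h in vehicle (grey) and FGF6 (red) libraries, with points for libraries, bars for the mean ± SD of 3 and lines joining the means. The groups are apart at every time for every gene but Sesn3, Irs1 crosses from above to below vehicle between 8 and 24 h, and Ccng2 crosses from below to above.

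Foxo1 encodes the FoxO factor best known from insulin action on liver and fat. The gene lies on chromosome 3 from 52268336 to 52353221 on the plus strand of GRCm38 (ENSMUSG00000044167). At 4 h, Foxo1 was at 55.3, 52.4 and 50.9 CPM in the vehicle libraries and at 24.3, 27.2 and 28.0 CPM in the FGF6 libraries. For Foxo1 at 8 h, the vehicle libraries had 33.4, 36.4 and 37.8 CPM and the FGF6 libraries 17.6, 15.7 and 16.0 CPM. At 24 h, Foxo1 stood at 24.7, 26.3 and 27.4 CPM with vehicle and at 12, 11.4 and 11.8 CPM with FGF6. All FGF6 libraries were below all vehicle libraries of their time, and both treatments went down from each time to the next. Foxo1 had a log2 fold change of -1.0 ± 0.058 (SE) at 4 h, -1.12 ± 0.063 (SE) at 8 h and -1.15 ± 0.070 (SE) at 24 h (edgeR adjusted p = 1.05e-13, 3.02e-14 and 8.3e-14). The FGF6 effect was not shown to differ between 4 and 8 h (difference -0.13, 95% confidence interval -0.30 to 0.05, edgeR adjusted p = 0.299) or between 8 and 24 h (difference -0.03, 95% confidence interval -0.23 to 0.17, edgeR adjusted p = 0.829). In vehicle cells, Foxo1 fell by 0.56 on the log2 scale from 4 to 8 h and by 0.46 from 8 to 24 h, the single member of the 10 to fall in vehicle cells over both steps. A stretch of 674 of its 8665 exonic bases is shared with the antisense gene Gm20402, which had 0 counts throughout.

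Foxo3, the FoxO factor tied to cell cycle arrest and stress resistance, lies on chromosome 10 from 42181841 to 42276755 on the minus strand (ENSMUSG00000048756). At 4 h, Foxo3 was at 100.2, 91.2 and 91.8 CPM in the vehicle libraries and at 73.9, 72.8 and 73.0 CPM in the FGF6 libraries. For Foxo3 at 8 h, the vehicle libraries had 102, 104 and 99.8 CPM and the FGF6 libraries 64.7, 58.2 and 58.1 CPM. At 24 h, Foxo3 stood at 119, 125 and 121 CPM with vehicle and at 57.7, 55.8 and 56.8 CPM with FGF6. The distance between the groups widened with time, with vehicle means higher and FGF6 means lower at each step. Foxo3 had a log2 fold change of -0.37 ± 0.042 (SE), -0.76 ± 0.043 (SE) and -1.10 ± 0.043 (SE) at 4, 8 and 24 h (edgeR adjusted p = 3.37e-08, 2.7e-14 and 8.65e-18). The difference between the effects at 8 and 4 h was -0.39 (interaction, edgeR adjusted p = 1.71e-05), and the difference from 8 to 24 h was -0.35 (edgeR adjusted p = 3.73e-05). Vehicle levels rose over both steps, with log2 changes of 0.11 and 0.26, and FGF6 levels fell from 4 to 8 h with -0.28. From 8 to 24 h the FGF6 libraries had -0.09, which did not pass the test (edgeR adjusted p = 0.0855).

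Foxo4 is the FoxO factor on the X chromosome, from 101254528 to 101260873 on the plus strand (ENSMUSG00000042903). At 4 h, Foxo4 was at 33.2, 33.4 and 35.3 CPM in the vehicle libraries and at 23.6, 22.2 and 25.0 CPM in the FGF6 libraries. For Foxo4 at 8 h, the vehicle libraries had 46.2, 49.4 and 46.5 CPM and the FGF6 libraries 34.9, 35.3 and 37.0 CPM. At 24 h, Foxo4 stood at 52.5, 52.8 and 55.0 CPM with vehicle and at 39.7, 43.4 and 42.0 CPM with FGF6. The FGF6 libraries were below the vehicle libraries at each time, yet both groups rose, unlike those of Foxo1. Foxo4 had a log2 fold change of -0.53 ± 0.052 (SE), -0.41 ± 0.048 (SE) and -0.36 ± 0.048 (SE) (edgeR adjusted p = 2.22e-09, 3.63e-08 and 2.44e-07). The estimates moved toward 0 with time, but the difference was not shown from 4 to 8 h (difference 0.12, 95% confidence interval -0.03 to 0.26, edgeR adjusted p = 0.231) or from 8 to 24 h (difference 0.05, 95% confidence interval -0.09 to 0.19, edgeR adjusted p = 0.562). From 4 to 8 h, Foxo4 rose by 0.48 in vehicle and by 0.60 in FGF6 cells on the log2 scale.

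Irs1 encodes the first insulin receptor substrate, an adaptor that brings PI3K to active insulin and IGF1 receptors. It lies on chromosome 1 from 82233101 to 82291416 on the minus strand (ENSMUSG00000055980). At 4 h, Irs1 was at 42.3, 44.2 and 40.4 CPM in the vehicle libraries and at 59.6, 65.8 and 63.9 CPM in the FGF6 libraries. For Irs1 at 8 h, the vehicle libraries had 38.1, 40.7 and 40.3 CPM and the FGF6 libraries 73.6, 70.2 and 71.7 CPM. At 24 h, Irs1 stood at 71.3, 66.6 and 64.5 CPM with vehicle and at 54.2, 58.5 and 57.7 CPM with FGF6. At 4 and 8 h all FGF6 libraries were above all vehicle libraries, and at 24 h all were below. Irs1 had a log2 fold change of 0.58 ± 0.049 (SE) at 4 h, 0.86 ± 0.049 (SE) at 8 h and -0.25 ± 0.048 (SE) at 24 h (edgeR adjusted p = 1.5e-10, 4e-14 and 5.39e-05). The difference between the effects at 24 and 8 h was -1.10 ± 0.069 (SE, interaction, edgeR adjusted p = 1.36e-12), and that between 8 and 4 h was 0.28 (edgeR adjusted p = 0.00315). From 8 to 24 h vehicle levels rose by 0.77 while FGF6 levels fell by 0.34 on the log2 scale, so both groups took part in the turn. Of its 9144 exonic bases, 2822 overlap the gene Gm9747 on the other strand, which had 0 counts throughout. The strand setting of the counting is not given, so reads in that stretch could not be assigned to a strand.

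Irs2, the second insulin receptor substrate and a FoxO target in liver, lies on chromosome 8 from 10984681 to 11008458 on the minus strand (ENSMUSG00000038894). At 4 h, Irs2 was at 47.4, 46.6 and 44.8 CPM in the vehicle libraries and at 17.9, 17.9 and 15.8 CPM in the FGF6 libraries. For Irs2 at 8 h, the vehicle libraries had 42.3, 39.0 and 34.2 CPM and the FGF6 libraries 27.4, 24.4 and 23.9 CPM. At 24 h, Irs2 stood at 56.9, 51.8 and 53.0 CPM with vehicle and at 28.6, 30.0 and 31.3 CPM with FGF6. Irs2 was lower with FGF6 at 4 and 8 h, the times at which Irs1 was higher. Irs2 had a log2 fold change of -1.42 ± 0.070 (SE), -0.61 ± 0.068 (SE) and -0.84 ± 0.066 (SE) (edgeR adjusted p = 3.82e-15, 1.52e-08 and 1.35e-11). The effect was weaker at 8 than at 4 h, by 0.82 ± 0.098 on the log2 scale (SE, interaction, edgeR adjusted p = 6.33e-07). FGF6 levels rose by 0.55 from 4 to 8 h and by 0.25 from 8 to 24 h, and vehicle levels had -0.27 and 0.48. The difference between 24 and 8 h, -0.24 (edgeR adjusted p = 0.0431), did not pass the test with library sizes alone, with upper-quartile factors, or when replicate 1 or 2 of FGF6 at 24 h, replicate 1 of FGF6 at 8 h, replicate 1 of vehicle at 24 h, or replicate 2 or 3 of vehicle at 8 h was left out. Over the 12 libraries left out in turn the value lay between -0.31 and -0.16. On the other strand, 162 of 6323 exonic bases of Irs2 overlap 9530052E02Rik, which had at most 3 counts in a library.

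Pik3ip1 encodes a membrane protein that binds the catalytic subunit of PI3K and lowers its activity. It lies on chromosome 11 from 3330401 to 3342971 on the plus strand (ENSMUSG00000034614). At 4 h, Pik3ip1 was at 7.20, 7.73 and 7.91 CPM in the vehicle libraries and at 4.58, 4.37 and 3.62 CPM in the FGF6 libraries. For Pik3ip1 at 8 h, the vehicle libraries had 9.15, 8.96 and 10.2 CPM and the FGF6 libraries 2.18, 1.85 and 2.30 CPM. At 24 h, Pik3ip1 stood at 22.0, 25.7 and 25.3 CPM with vehicle and at 2.55, 3.46 and 3.19 CPM with FGF6. The groups moved apart at each step, with vehicle libraries highest at 24 h and FGF6 libraries lowest at 8 h. The log2 fold change went from -0.85 ± 0.11 (SE) at 4 h to -2.16 ± 0.12 (SE) at 8 h and -2.98 ± 0.11 (SE) at 24 h (edgeR adjusted p = 3.33e-07, 4.33e-14 and 1.51e-18). Against vehicle, the level decreased by 87.4% at 24 h. Both differences between times passed the test, with -1.31 from 4 to 8 h (interaction, edgeR adjusted p = 2.49e-06) and -0.82 from 8 to 24 h (edgeR adjusted p = 0.000481). FGF6 levels fell by 1.00 on the log2 scale from 4 to 8 h and then rose by 0.55, while vehicle levels rose by 1.37 from 8 to 24 h. Pik3ip1 had the fewest counts of the 10 genes, 55 to 97 per FGF6 library at 8 and 24 h. It shares 91 of 4272 exonic bases with Gm12592 on the other strand, which had 13 to 42 counts per library.

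Sesn1 and Sesn3 encode sestrins, stress-induced proteins that bind GATOR2 and restrain mTORC1. Sesn1 lies on chromosome 10 from 41809935 to 41908424 on the plus strand (ENSMUSG00000038332) and is also known as a p53 target. At 4 h, Sesn1 was at 26.1, 27.3 and 28.2 CPM in the vehicle libraries and at 12.6, 10.5 and 10.4 CPM in the FGF6 libraries. For Sesn1 at 8 h, the vehicle libraries had 38.3, 43.1 and 43.6 CPM and the FGF6 libraries 11.5, 12.7 and 12 CPM. At 24 h, Sesn1 stood at 65.0, 66.0 and 65.5 CPM with vehicle and at 19.9, 18.8 and 18.9 CPM with FGF6. No FGF6 library at any time reached the lowest vehicle library at 4 h. Sesn1 had a log2 fold change of -1.29 ± 0.068 (SE), -1.78 ± 0.065 (SE) and -1.77 ± 0.059 (SE) (edgeR adjusted p = 1.58e-14, 3.74e-18 and 4.55e-19). The effect was stronger at 8 than at 4 h by -0.50 (interaction, edgeR adjusted p = 0.000286) and was not shown to differ between 8 and 24 h (difference 0.01, 95% confidence interval -0.17 to 0.20, edgeR adjusted p = 0.922). From 8 to 24 h both groups rose, by 0.65 in vehicle and by 0.67 in FGF6 cells on the log2 scale.

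Sesn3, a known target of FoxO1 and FoxO3, lies on chromosome 9 from 14275067 to 14333101 on the plus strand (ENSMUSG00000032009). At 4 h, Sesn3 was at 33.8, 32.4 and 33.1 CPM in the vehicle libraries and at 33.9, 29.7 and 31.4 CPM in the FGF6 libraries. For Sesn3 at 8 h, the vehicle libraries had 52.8, 56.7 and 51.7 CPM and the FGF6 libraries 53.7, 55.0 and 58.8 CPM. At 24 h, Sesn3 stood at 71.0, 77.3 and 74.9 CPM with vehicle and at 75.4, 75.0 and 76.6 CPM with FGF6. The treatments overlapped at each time, and both rose with time. Sesn3 had a log2 fold change of -0.07 ± 0.054 (SE) at 4 h (95% confidence interval -0.18 to 0.05), 0.05 ± 0.049 (SE) at 8 h (-0.05 to 0.15) and 0.02 ± 0.048 (SE) at 24 h (-0.07 to 0.12), and the edgeR adjusted p was 0.304, 0.344 and 0.651. The intervals leave out changes of the size measured for Sesn1. With library sizes alone the value at 4 h was -0.17 (edgeR adjusted p = 0.00945), at a median of -0.15 over all genes. Sesn3 rose by 0.70 in vehicle and by 0.82 in FGF6 cells from 4 to 8 h, and by 0.47 and 0.44 from 8 to 24 h, on the log2 scale.

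Ccng2 encodes cyclin G2, an atypical cyclin linked to cell cycle arrest and a known FoxO target. It lies on chromosome 5 from 93267257 to 93276231 on the plus strand (ENSMUSG00000029385). At 4 h, Ccng2 was at 16.3, 19.1 and 20.9 CPM in the vehicle libraries and at 10.3, 7.71 and 8.86 CPM in the FGF6 libraries. For Ccng2 at 8 h, the vehicle libraries had 32.8, 33.2 and 36.0 CPM and the FGF6 libraries 10, 10.8 and 11.2 CPM. At 24 h, Ccng2 stood at 80.0, 82.3 and 82.7 CPM with vehicle and at 92.1, 93.9 and 92.9 CPM with FGF6. At 4 and 8 h the FGF6 libraries lay well below the vehicle libraries, and at 24 h they lay a little above them. Ccng2 had a log2 fold change of -1.07 ± 0.087 (SE) at 4 h, -1.67 ± 0.079 (SE) at 8 h and 0.19 ± 0.060 (SE) at 24 h (edgeR adjusted p = 6.24e-11, 7.43e-16 and 0.00707). The difference between the effects at 24 and 8 h was 1.86 ± 0.099 (SE, interaction, edgeR adjusted p = 6.55e-14), and that between 8 and 4 h was -0.60 (edgeR adjusted p = 0.000392). From 8 to 24 h the FGF6 level rose 8.71-fold and the vehicle level 2.40-fold. The FGF6 step was the largest change of any of the 10 genes between neighbouring times in either treatment.

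Txnip encodes an arrestin-like protein that binds thioredoxin and lowers glucose uptake, and its transcription is known to follow glucose through MondoA-related factors. It lies on chromosome 3 from 96557957 to 96561883 on the plus strand (ENSMUSG00000038393). At 4 h, Txnip was at 67.6, 75.6 and 78.1 CPM in the vehicle libraries and at 12.1, 9.50 and 8.61 CPM in the FGF6 libraries. For Txnip at 8 h, the vehicle libraries had 114, 129 and 135 CPM and the FGF6 libraries 29.3, 29.1 and 28.2 CPM. At 24 h, Txnip stood at 123, 138 and 140.4 CPM with vehicle and at 15.9, 14.1 and 14.6 CPM with FGF6. The FGF6 libraries were far below the vehicle libraries at every time, with their highest level at 8 h. Txnip had a log2 fold change of -2.87 ± 0.088 (SE) at 4 h, -2.12 ± 0.075 (SE) at 8 h and -3.17 ± 0.082 (SE) at 24 h (edgeR adjusted p = 2.03e-19, 2.1e-18 and 1.98e-21). Against vehicle, the level changed by -86.4%, -77% and -88.9%. The effect was weaker at 8 than at 4 h by 0.75 (interaction, edgeR adjusted p = 2.41e-05) and stronger at 24 than at 8 h by -1.04 (edgeR adjusted p = 2.76e-08). In FGF6 cells Txnip rose by 1.52 on the log2 scale from 4 to 8 h and then fell by 0.96, while vehicle levels rose by 0.77 and then had 0.09, which did not pass the test (edgeR adjusted p = 0.291). The antisense gene Gm15441 overlaps 606 of its 3123 exonic bases and had 2 to 36 counts per library, against 212 to 4572 for Txnip.

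**Figure D2:**
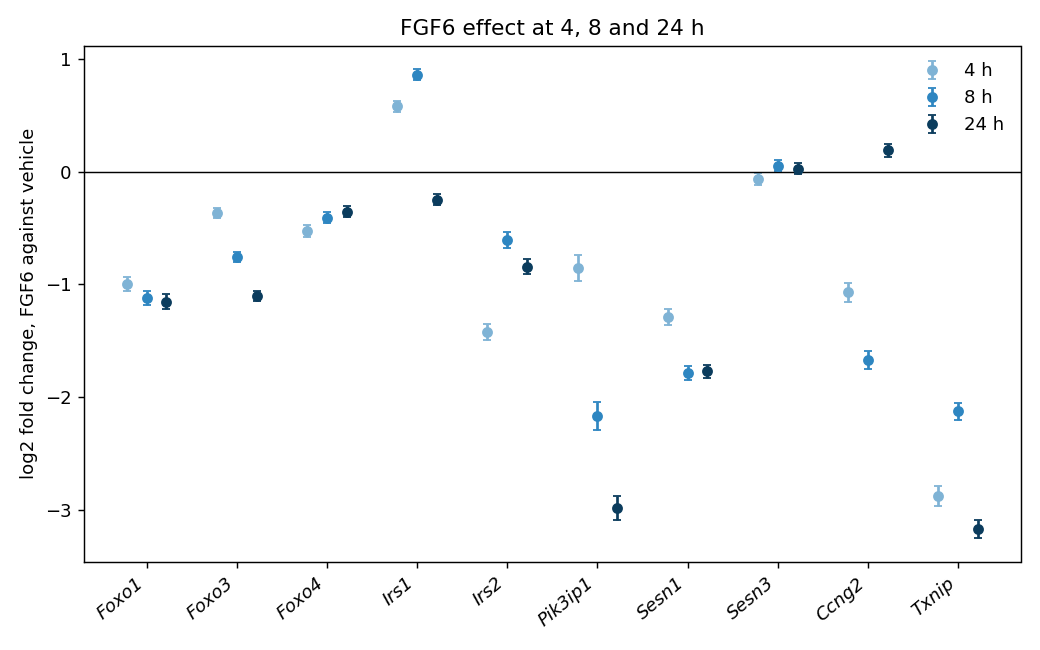
Log2 fold change of FGF6 against vehicle (vertical axis) for each of the 10 genes at 4, 8 and 24 h (light to dark blue), with bars for ± SE. The values lie at -0.07 to 0.05 for Sesn3, change sign in Irs1 and Ccng2, and reach -3.17 for Txnip and -2.98 for Pik3ip1 at 24 h.

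Over the 10 genes, the FGF6 effect differed between 4 and 8 h for 7 and between 8 and 24 h for 6, against 30.6% and 45.1% of all genes tested. The genes without a call were Foxo1, Foxo4 and Sesn3 in the first of these tests, and the same 3 with Sesn1 in the other. The levels also moved with time where no FGF6 was given. In vehicle cells 9 of the 10 genes changed from 4 to 8 h (7 higher, 2 lower) and 9 from 8 to 24 h (8 higher, 1 lower), against 43.0% and 49.2% of all genes in either direction. Irs1 was the gene without a call in the first step and Txnip in the second. In FGF6 cells 9 changed from 4 to 8 h (6 higher, 3 lower) and 9 from 8 to 24 h (6 higher, 3 lower), against 48.2% and 62.3% of all genes. There, Sesn1 and Foxo3 were the genes without a call. The median log2 change of the 10 genes in vehicle cells was 0.39 and 0.48 for the 2 steps, and 0.00 for all genes in both.

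Per length of transcript (RPKM, CPM divided by the exon length in kilobases), the 10 genes covered a wide range of levels. In vehicle cells at 4 h the order was Txnip (23.6 ± 1.77 RPKM, SD, n = 3), Foxo3 (12.5), Foxo4 (9.75), Irs2 (7.32), Sesn1 (6.83), Foxo1 (6.10), Irs1 (4.63), Ccng2 (3.44), Sesn3 (2.17) and Pik3ip1 (1.78 ± 0.0865), with no overlap between neighbours. By 24 h in vehicle cells Txnip stood at 42.8 ± 3.00 RPKM, and Sesn1, Foxo3, Foxo4 and Ccng2 lay together at 16.5, 16.1, 15.3 and 15.0 RPKM, each overlapping the next. Foxo1 came last there, at 3.02 ± 0.158 RPKM. With FGF6 for 24 h, Ccng2 was first at 17.0 ± 0.167 RPKM, followed by Foxo4 (12), Foxo3 (7.50) and Irs1 (6.21). Sesn3, Sesn1, Txnip and Irs2 followed between 4.96 and 4.74 RPKM and overlapped from one to the next, and Foxo1 (1.36) and Pik3ip1 (0.719) came last. At 4 h with FGF6 the first was Foxo3 (9.67), and Txnip was at 3.22 ± 0.572 RPKM, overlapping Foxo1 at 3.06. Among the FoxO factors, Foxo3 and Foxo4 were above Foxo1 in every group. Foxo4 was below Foxo3 in both treatments at 4 h, overlapped it in vehicle cells at 8 and 24 h, and was above it with FGF6 at those times. Gene lengths were taken over all annotated exons, so a gene whose cells use a shorter transcript has its RPKM understated. The lengths include bases shared with genes on the other strand, as in Irs1 (2822 of 9144) and Txnip (606 of 3123). If reads there were left uncounted, the RPKM of these genes is understated too, and the order could differ.

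**Figure D3:**
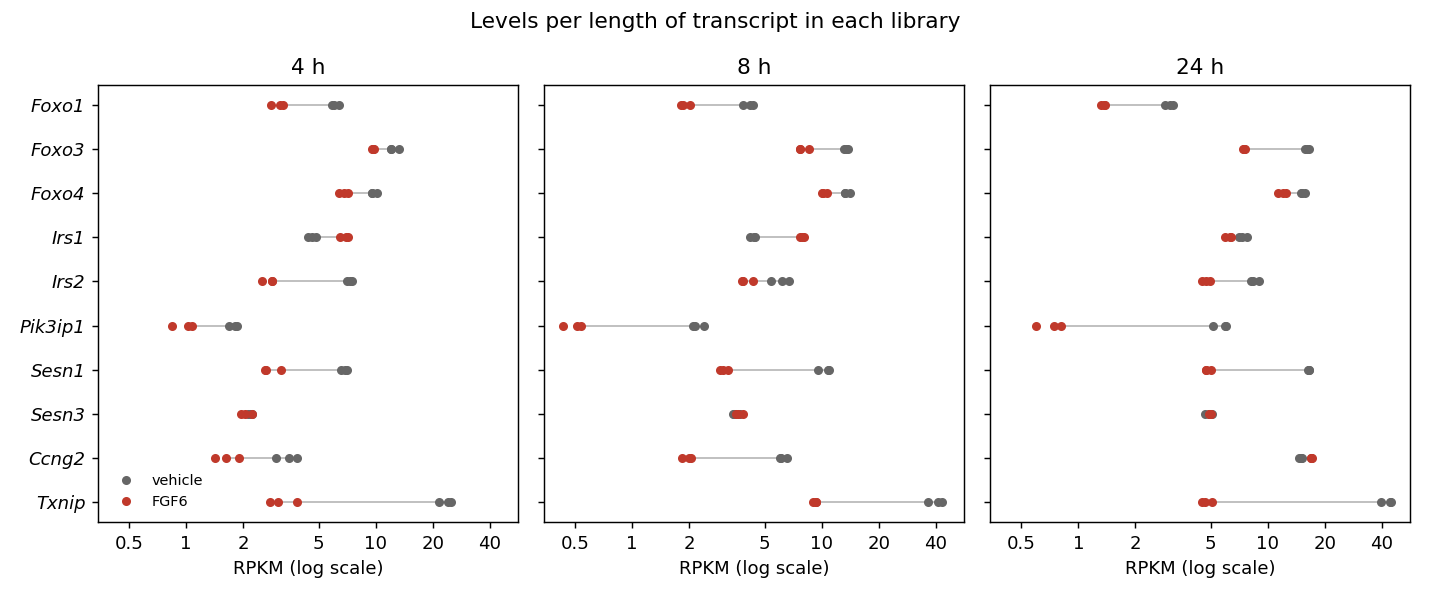
RPKM (horizontal axis, log scale) of the 10 genes in each vehicle (grey) and FGF6 (red) library at 4, 8 and 24 h, with a line joining the 2 group means. Txnip is the highest gene in vehicle libraries at each time, at 23.6, 40.3 and 42.8 RPKM on average, and lies at 3.22, 9.25 and 4.77 RPKM with FGF6.

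Genes around the 10 in the pathway were counted in 6 lists, which were chosen with earlier results of these data known. Of all genes tested, 28.6%, 32.4% and 35.9% were called higher with FGF6 at 4, 8 and 24 h. The shares called lower were 34.2%, 38.4% and 37.9%, and the counts of each list are to be read beside these shares. Of 9 genes listed for class I PI3K, its subunits and the adaptor gene Pik3ap1, 7 were tested, and Pik3cg and Pik3ap1 had 43 and 19 counts in all libraries together. At 4, 8 and 24 h, 2, 2 and 3 were higher with FGF6 and 2, 3 and 2 lower, with a median log2 fold change of -0.03, -0.03 and -0.05. The regulatory subunit p85α, encoded by Pik3r1, fell steeply, with -0.86, -1.65 and -2.51 at the 3 times. For Pik3r3, encoding the regulatory subunit p55γ, the log2 fold change was -1.15, -1.12 and -1.14. The catalytic subunit gene Pik3cb rose, with 0.26, 0.47 and 0.67. Pik3ca had 0.00, -0.03 and 0.23 and Pik3cd -0.05, -0.48 and 0.31, and each was called higher at 24 h, after Pik3cd had been lower at 8 h. Pik3r5, which encodes a subunit of the G protein-coupled class, was higher at 4 and 8 h and not called at 24 h (0.78, 0.92 and -0.07). Pik3r2 was not called at any time (-0.03, 0.10 and -0.05), and was named after its values were seen.

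Of 13 genes listed as antagonists of PI3K or AKT, 12 were tested, with 4, 4 and 5 higher and 5, 6 and 3 lower, and medians of 0.07, -0.04 and 0.06. The phosphoinositide phosphatase gene Inpp5k fell at all times (-0.50, -0.60 and -0.84). The pseudokinase genes Trib1 (1.06, 0.99 and 1.65) and Trib2 (2.09, 2.18 and 1.60) rose, as did Inppl1, encoding the phosphatase SHIP2 (0.75, 0.82 and 0.52). Trib1 and Trib2 are counted among the genes higher at each time, although a role as antagonists is not established for them. Inpp4b was called higher at 24 h alone (0.66, 0.53 and 1.83), at a mean of 0.437 CPM in vehicle and 1.49 CPM in FGF6 libraries there. Of the remaining genes, which were named after their values were seen, Phlpp1 was higher at all times (0.43, 0.65 and 0.45) and Tsc1 lower (-0.26, -0.36 and -0.53), and Trib3 was lower at 4 and 8 h (-0.51, -0.40 and 0.06), as was Inpp4a (-0.35, -0.34 and 0.01).

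All 16 kinases and partners of the AKT, PDK1, SGK and mTOR group were tested. At the 3 times 6, 7 and 8 were higher and 6, 7 and 4 lower, with medians of -0.04, 0.00 and 0.12. Sgk1, a kinase activated by PDK1 that also phosphorylates FoxO3, rose from 159.3 to 855.6 CPM at 4 h, with log2 fold changes of 2.42, 3.01 and 2.31. Its relative Sgk2 rose from a low level (1.91, 2.61 and 3.17), from 1.75 to 16.2 CPM at 24 h. Sgk3, in contrast, was lower at 8 and 24 h (-0.06, -0.69 and -1.25). Akt1 was higher at 8 and 24 h (-0.05, 0.31 and 0.59), and Rptor, which encodes the mTORC1 subunit Raptor, at each time (0.46, 0.74 and 0.63). The 4 genes lower at 24 h were Sgk3, Akt2 (-0.20, -0.38 and -0.53), Mapkap1 (-0.37, -0.23 and -0.23) and Gsk3b (-0.07, -0.28 and -0.22), of which the latter 3 were named after their values were seen.

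The 19 regulators of FoxO proteins were all tested. They comprise 14-3-3 proteins, the exportin Xpo1, deacetylases and acetyltransferases, a methyltransferase, ubiquitin ligases and a deubiquitinase, and the MST kinases. With FGF6, 7, 9 and 15 were higher and 4, 2 and 1 lower, with medians of 0.04, 0.13 and 0.40 at 4, 8 and 24 h. The counts higher stood against 28.6%, 32.4% and 35.9% of all genes at the 3 times. The proteins listed act on FoxO in different ways, so the counts have no single direction for FoxO. The 14-3-3 genes Ywhag (0.86, 0.94 and 0.92) and Ywhaz (0.34, 0.41 and 0.80) were higher at all times. So were Prmt1, an arginine methyltransferase that acts on FoxO1 (0.28, 0.67 and 0.83), and Skp2, a ubiquitin ligase subunit for FoxO1 (0.29, 0.56 and 0.71). Mdm2 (0.49, 0.20 and 0.29), Usp7 (0.20, 0.25 and 0.48) and Stk4 (0.48, 0.40 and 0.53) were also higher at all times. These were named after their values were seen. Xpo1 was lower at 4 h, not called at 8 h and higher at 24 h (-0.16, 0.00 and 0.55). The deacetylase gene Sirt2 was lower at each time (-0.35, -0.44 and -0.66), the single gene of this list lower at 24 h. At 4 h Sirt3 (-0.30, 0.05 and 0.02) and Crebbp (-0.13, -0.14 and -0.10) were also lower, and at 8 h Crebbp, both named after their values were seen.

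Of 35 other genes known as FoxO targets, 29 were tested. With FGF6 18, 21 and 22 were lower and 6, 6 and 5 higher at 4, 8 and 24 h, against 34.2%, 38.4% and 37.9% of all genes lower. The median log2 fold change was -0.29, -0.68 and -0.75. Trp53inp1, which encodes a stress protein with a part in autophagy and is also a p53 target, went from 48.9 to 9.11 CPM at 4 h and had log2 fold changes of -2.43, -2.61 and -2.94. Of the ubiquitin ligase genes known from muscle wasting, Fbxo32 had -1.02, -2.06 and -2.92, at a mean of 22.1 CPM in vehicle and 2.91 CPM in FGF6 libraries at 24 h, and Trim63 had a mean of 1.22 CPM in vehicle and at most 1 count per FGF6 library at 24 h. The selenium carrier gene Selenop fell increasingly with time (-0.29, -1.11 and -3.18), as did the transcription factor gene Klf15 (-1.04, -1.40 and -2.52). Tnfsf10, encoding the death ligand TRAIL, overlapped between the groups at 4 h and had a mean of 4.04 CPM in vehicle and at most 4 counts per FGF6 library at 24 h. The genes higher at 24 h were Bcl6, a transcriptional repressor (1.82, 1.24 and 1.73), Gadd45a (0.01, -0.03 and 0.58), Bnip3 (-0.60, -1.34 and 0.50), Ccn2 (0.71, 1.43 and 0.57) and Rictor (0.25, 0.19 and 0.21), and these 5 were named after their values were seen. Bnip3, a mitophagy receptor gene, was lower at 4 and 8 h, like Ccng2. Cdkn1a (1.02, 0.43 and -0.12) and Cited2 (0.18, 0.695 and -0.40) were higher at 4 and 8 h and lower at 24 h. Bcl2l11 was higher at 4 h, not called at 8 h and lower at 24 h (0.61, 0.12 and -0.75). Ddb1 was called higher at 8 h alone (0.01, 0.05 and 0.05). These genes, too, were named after their values were seen. Insr, the insulin receptor gene, was called lower at 8 h and not at 4 or 24 h (-0.02, -0.22 and -0.05), and was also named after its values were seen. The list overlaps the others in Sesn2, Insr and Rictor.

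Paralogues and partners of the 10 genes were listed last, and 15 of 17 were tested, with 8, 7 and 6 higher and 6, 7 and 7 lower and medians of 0.14, 0.15 and -0.05. Sesn2, another sestrin gene, fell at each time (-0.73, -0.68 and -1.14), like Sesn1 and unlike Sesn3. Ccng1, encoding cyclin G1, a p53 target, was lower at 24 h as at 4 and 8 h (-0.87, -1.16 and -1.30), whereas Ccng2 was higher at 24 h. Known p53 targets were not listed or counted as a group. The mention of p53 for Sesn1, Trp53inp1 and Ccng1 therefore says nothing on such genes as a whole. Arrdc3, an arrestin-like relative of Txnip, rose (1.11, 1.02 and 1.66), and Txnrd1, encoding a thioredoxin reductase, also rose (0.52, 0.76 and 0.95). Foxo6 was lower at low levels (-1.19, -1.99 and -0.91), with a mean of 1.11 CPM in vehicle and 0.485 CPM in FGF6 libraries at 4 h. Irs3, a further insulin receptor substrate gene of mice, had 0.588 CPM in vehicle and at most 3 counts per FGF6 library at 24 h. The insulin receptor relative Igf1r was higher at 4 and 8 h and not called at 24 h (0.16, 0.34 and 0.10), and was named after its values were seen.

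**Figure D4:**
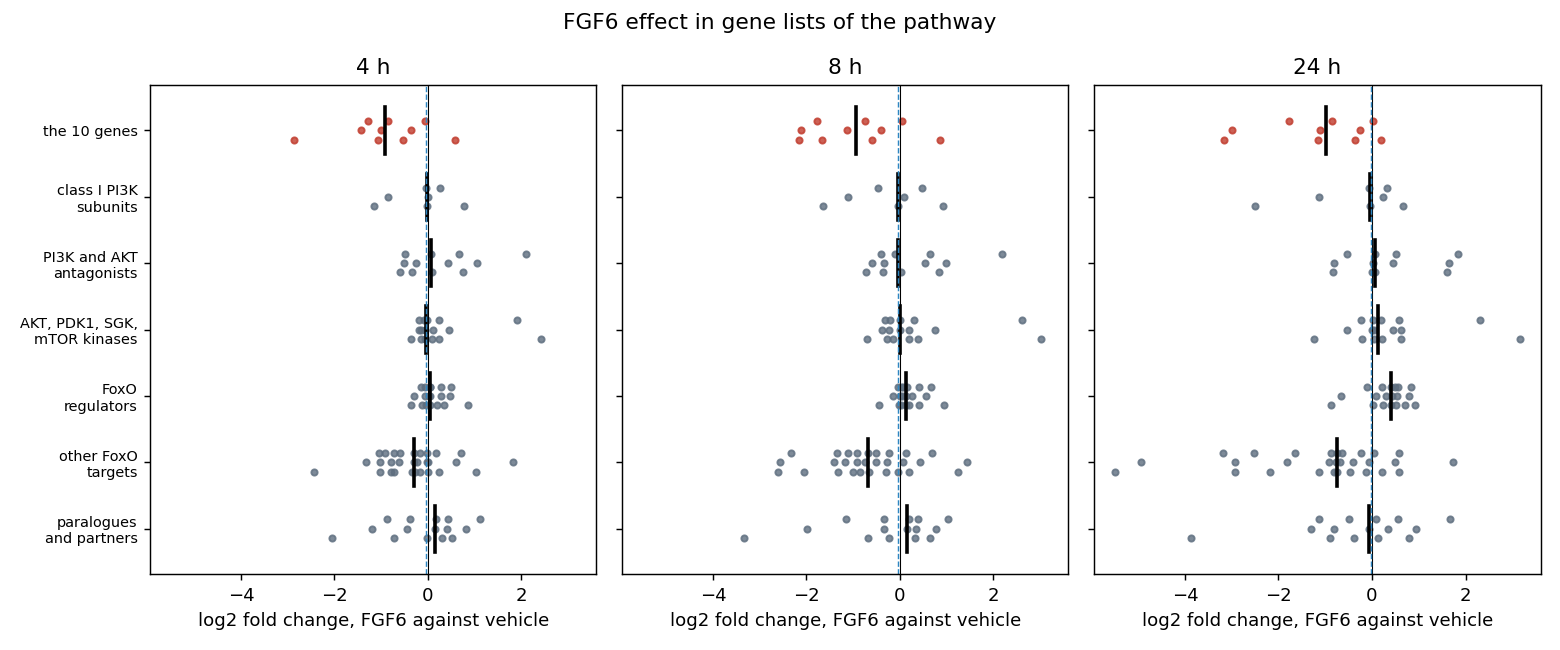
Fitted log2 fold change of FGF6 against vehicle (horizontal axis) for each tested gene of the 10 (red) and of the 6 lists (grey) at 4, 8 and 24 h, with vertical offsets that only separate points. Black bars mark medians, at -0.97 for the 10 genes, -0.75 for the other FoxO targets and 0.40 for the FoxO regulators at 24 h, and the dashed line marks the median of all genes tested, -0.02.

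Across the 18 libraries the 10 genes did not move as one. These values describe log2 levels in 18 libraries from the same 6 groups, so treatment and time enter every one of them. Pearson's r was 0.95 between Foxo3 and Pik3ip1, 0.91 between Pik3ip1 and Sesn1, 0.89 between Sesn1 and Irs2 and 0.89 between Sesn1 and Txnip. Irs1 had r between -0.64 and 0.29 with the other 9 genes, and Foxo1 and Sesn3 had -0.63. Sesn3 was closest to Foxo4 (0.81) and Ccng2 (0.80). Of genes outside the 10, the 2 with the highest r to each were found by rule. For Foxo3 these were Pik3r1 (0.993) and Saraf (0.991), for Foxo1 Lmo4 (0.987) and Tpcn2 (0.983), and for Foxo4 Lig1 (0.987) and Iqgap3 (0.982). Irs1 was most like Mcu (0.941) and Rcan2 (0.936), and Irs2 most like Tmem86a (0.966) and Snx15 (0.964). The pattern of Pik3ip1 was closest to Fam129a (0.990) and Trp53inp2 (0.987), that of Sesn1 to Ctdsp2 (0.993) and Gulp1 (0.992), and that of Sesn3 to Sema3a (0.987) and Cops6 (0.980). Ccng2 was most like Bnip3l (0.990), a mitophagy receptor gene, and Hmgn5 (0.989), and Txnip most like Osbpl1a (0.992) and Ndrg3 (0.989).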

How the data were processed

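RNA-seq libraries of mouse brown preadipocytes were made in triplicate for each of 6 groups. The authors used STAR for alignment to GRCm38.p4 and featureCounts (Subread) for counting over GENCODE genes, and deposited the raw counts with no normalization. Versions, the annotation release, the strand setting and the handling of reads that map to several places are not given in the sources used here, so genes that overlap another gene on the other strand are uncertain.

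From the deposited counts, filterByExpr with the 6 groups kept 15071 of 48023 genes. TMM factors lay between 0.951 and 1.05. Group means of all 18 libraries were fitted together with the quasi-likelihood method of edgeR 4.0.16 (R 4.3.3), with Benjamini-Hochberg adjustment over the genes tested. Differences between time points were tested as interactions. SEs were derived from the F statistic, and confidence intervals from the SEs. Symbols, positions and exon lengths came from GENCODE M21, which held 47310 (98.5%) of the identifiers, and promoter windows from RefSeq on GRCm38.p6. The study used voom and limma at a threshold of 0.25. Alternatives tried here were voom with limma 3.58.1, that threshold, DESeq2 1.42.0, other factors and filters, the replicate block, a 2-fold limit, the time points compared alone, and each library left out. The 10 genes, the lists and the tests were chosen with earlier results of these data known.

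Genes were named by rule: the 10, up to 6 genes per list with the largest log2 fold change at any time among those called with no overlap between groups, and the 2 genes most correlated with each of the 10 (at least 1 CPM on average). Counts of 24327816 to 33471980 per library set the precision, and 3 counts were taken as the floor, for counting error only. The fit was tested on simulated counts of the 24 h comparison with 200 genes changed, in which 14427 genes were tested. Of changed genes over 1 CPM the fit recovered 47 of 55 at a log2 change of 0.5, 48 of 51 at 1 and 55 of 55 at 2, with 13 false calls among 14234 genes. Of all changed genes tested it recovered 47 of 65, 48 of 66 and 60 of 62. Every simulated library was drawn from the vehicle means at 24 h. In the data, 37.9% of genes were called lower and 35.9% higher at 24 h, so the simulation cannot test the scaling or false calls under changes that wide. Gene sets were not tested, and Foxo4 promoter sequence was not analysed here. Values of some genes that the lists and this rule take in are not reported here.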

Additional observations from a re-analysis of the deposited data

Results flagged for a closer look

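For 7 of the 10 genes the FGF6 effect differed between neighbouring time points in an interaction test (edgeR adjusted p under 0.05). Foxo1, Foxo4 and Sesn3 are not among them at either step. By step the numbers were 7 from 4 to 8 h and 6 from 8 to 24 h, against 30.6% and 45.1% of all genes tested. The share of all genes called at either step was not counted. From 4 to 8 h, the difference between the log2 fold changes was -0.39 for Foxo3, 0.28 for Irs1, 0.82 for Irs2, -1.31 for Pik3ip1, -0.50 for Sesn1, -0.60 for Ccng2 and 0.75 for Txnip. From 8 to 24 h it was -0.35 for Foxo3, -1.10 for Irs1, -0.24 for Irs2, -0.82 for Pik3ip1, 1.86 for Ccng2 and -1.04 for Txnip. In Irs1 and Ccng2 the effect also changed sign between 8 and 24 h. Irs2 and Txnip were nearer to vehicle at 8 h than at 4 or 24 h, though for Irs2 the difference from 8 to 24 h lost its call under other scalings, and the effect on Foxo3 and Pik3ip1 grew at both steps. All 13 differences were taken from the same 18 libraries, and neighbouring differences share the libraries at 8 h.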

How the results depend on the processing

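The 50 fold changes and time differences of the 10 genes were refitted under 9 processing alternatives and with each library left out, which gave 870 values, and 842 of them kept both their direction and their side of the threshold. The values that turned direction belonged to comparisons without a call in the main fit. With library sizes alone, Sesn3 at 8 h had -0.0108, and the differences between 24 and 8 h were 0.0267 for Foxo1 and 0.0283 for Sesn3, or 0.0005 and 0.0025 with upper-quartile factors. That difference for Sesn1 was -0.0053 with RLE factors, -0.0033 without a filter, -0.0186 with at least 10 counts in every library and -0.0051 with DESeq2. With a library left out, Sesn3 at 4 h lay between -0.0935 and 0.0060, and the differences between 24 and 8 h between -0.0692 and 0.0232 for Foxo1, -0.0234 and 0.0711 for Sesn1, and -0.0699 and 0.0093 for Sesn3. The difference for Irs2 lost its call with library sizes alone (-0.18, adjusted p = 0.13) and with upper-quartile factors (-0.21, adjusted p = 0.0816), and Sesn3 at 4 h gained one with library sizes alone. The cause was not tested.

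With at least 2-fold required, 0, 0 and 0 of the 10 genes were higher with FGF6 at 4, 8 and 24 h and 4, 5 and 5 lower. Of all genes tested, 6.38%, 10.9% and 15.3% were at least 2-fold lower. At this limit the effect differed between times for 1 and 3 of the 10 genes, and 0 and 2 changed with time in vehicle and 2 and 1 in FGF6 cells. The shares of all genes at this limit were not counted for these comparisons between times. Same-numbered libraries did not deviate together (r between -0.0275 and 0.0486 in 9 pairs), and with the replicate block 8 genes were again lower and 1 higher at each time. Other alternatives left 8 lower and 1 higher at each time, except that 9 were lower at 4 h with library sizes alone. The effect differed from 4 to 8 h for 7 to 9 genes and from 8 to 24 h for 5 or 6. With 3 libraries per group, small differences such as those of Sesn3 are limited by depth and spread to the intervals given.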
